A study of Mus musculus with 8 samples.

Results

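Invariant natural killer T cells (iNKT cells) were picked out of the meningeal T cells of 2 mouse samples by their antigen receptor alone. A cell was taken as an iNKT cell when it carried a productive T-cell receptor alpha (TRA) contig that joined TRAV11 to TRAJ18. The rule found 126 such cells in replicate 1 and 429 in replicate 2, 555 in all. They stood beside 2726 other cells with a productive TRA contig, within 5074 cells that passed the filters and 46977 barcodes in the 2 libraries. Among TRA-bearing cells the iNKT share was 9.96% in replicate 1 (126 of 1265 cells, exact 95% binomial interval 8.37 to 11.7%) and 21.3% in replicate 2 (429 of 2016 cells, 19.5 to 23.1%). The mean of the 2 shares was 15.6% ± 8.004 (SD, n = 2), so the replicates differed by more than the counting error of either.

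The series examined CD4+ T cells of the meninges, the membranes around the brain, and cells of the hippocampus after depletion of regulatory T cells; the hippocampal samples were not analysed here. Replicate 1 came from Foxp3-GFP mice, which carry a green fluorescent reporter of regulatory T cells, and replicate 2 from wild-type B6 mice (labelled B6.WT). Neither replicate was treated, all animals were perfused before dissection, and live CD45+ CD3+ CD4+ cells were sorted, so iNKT cells without surface CD4 lay outside the gate. How many mice each replicate held, and their age, are not given in the sources used here. Genotype, library and software version changed together between the replicates, and their parts in any difference between replicates cannot be told apart.

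iNKT cells are T cells that recognise glycolipids held by the CD1d molecule through a nearly fixed receptor alpha chain, paired with beta chains from a small set of TRBV genes. They develop under the transcription factor PLZF, encoded by Zbtb16, and carry receptors otherwise typical of natural killer (NK) cells. Their main kinds, NKT1, NKT2 and NKT17 cells, are usually told apart by their master regulators, T-bet (Tbx21) for NKT1 and GATA3 for NKT2 cells; all are known for rapid release of cytokines.

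The alpha-chain junctions show how uniform the receptor was outside the V and J genes that chose the cells. Trav11 lies at chr14:53519303-53519859 and Traj18 at chr14:54200777-54200842 (GRCm38/mm10, GENCODE M21), and all contigs were assigned to TRAV11; Trav11d, a second copy, lies at chr14:52824357-52824912, and whether any contig came from it was not tested. The germline ends of the 2 gene segments are shown first, then the 4 commonest junctions and the commonest one that coded for another protein. Capitals mark codon 4, counted from the conserved cysteine, where V and J meet.
TRAV11 germline end: tgtgtggtgggcg
TRAJ18 germline start: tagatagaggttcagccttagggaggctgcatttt
Junction with GGC: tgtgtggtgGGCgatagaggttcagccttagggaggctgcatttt
Junction with GGG: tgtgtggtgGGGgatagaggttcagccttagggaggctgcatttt
Junction with GGA: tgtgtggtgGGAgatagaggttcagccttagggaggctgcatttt
Junction with GGT: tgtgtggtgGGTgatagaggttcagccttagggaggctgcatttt
Junction with GTC: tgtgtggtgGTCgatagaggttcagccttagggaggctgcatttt

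The GGC junction was carried by 45 iNKT cells in replicate 1 (35.7%) and 154 in replicate 2 (35.9%). The GGG junction followed with 33 and 127 cells (26.2% and 29.6%), the GGA junction with 23 and 73 cells (18.3% and 17.02%), and the GGT junction with 10 and 51 cells (7.94% and 11.9%). The 4 kept the same order in both replicates, and all code for glycine at codon 4. The GTC junction, which does not, was found in 5 and 4 cells.

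All iNKT alpha junctions were 45 bases long, in 126 of 126 and 429 of 429 cells. Among the alpha chains of the other cells, 17.7% (225 of 1274) and 13.3% (230 of 1732) had that length, within a range of 24 to 57 bases. A single protein sequence accounted for 114 of 126 iNKT junctions in replicate 1 (90.5%, exact 95% binomial interval 84.0 to 95.0%) and 411 of 429 in replicate 2 (95.8%, 93.4 to 97.5%). It was written by 5 different base sequences in replicate 1 and 8 in replicate 2, and it was seen in 0 of 1274 and 0 of 1732 other alpha chains. Base by base, the iNKT cells held 10 distinct junctions in replicate 1 and 20 in replicate 2, and all 10 of replicate 1 recurred in replicate 2. The other cells held 1080 distinct junctions in 1274 chains and 1541 in 1732 chains, of which 31 occurred in both replicates. Junctions that germline bases cover in full, with 0 added bases, made up 54.0% of iNKT cells in replicate 1 and 53.4% in replicate 2. A further 36.5% and 41.7% needed 1 base from elsewhere. Mucosal-associated invariant T cells, another invariant population, are marked by a TRAV1-TRAJ33 alpha chain, and 0 such cells were found in either replicate.

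The beta chain (TRB) was not part of the rule, and its V genes too came mostly from a small set. Usage was counted in cells with exactly 1 productive TRB chain, 108 and 366 iNKT cells and 1031 and 1305 other cells. TRBV13-2, which encodes the Vβ8.2 chain typical of mouse iNKT cells, was used by 54 of 108 iNKT cells in replicate 1 (50%) and 193 of 366 in replicate 2 (52.7%), against 10.2% and 13.4% of the other cells. The difference was 39.8 and 39.3 percentage points (mean 39.6 ± 0.349, SD, n = 2), far beyond the spread between replicates. Most of these contigs (52 of 54 and 189 of 193) carried the joint label TRBV12-2+TRBV13-2 and were counted as TRBV13-2; the genes are neighbours at chr6:41118851-41119364 and chr6:41121396-41121832.

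TRBV29, the Vβ7 gene, was used by 21.3% (23 of 108) and 11.7% (43 of 366) of iNKT cells, against 2.04% and 2.22% of the others. The iNKT share of TRBV29 was thus above the other cells in both replicates, but its size differed between them. TRBV13-1 was used by 13.0% and 13.7% of iNKT cells, against 8.44% and 6.82%. TRBV1, the Vβ2 gene, was used by 5.56% and 7.92% of iNKT cells and by 6.30% and 5.98% of the others, which overlap. TRBV13-3 was used by 4.63% and 7.92%, against 3.39% and 6.36%. It was thus higher in iNKT cells within each replicate, by 1.23 and 1.56 percentage points, while the replicates of each class differed by more than that. The 3 TRBV13 genes, TRBV29 and TRBV1 together covered 94.4% (of 108 cells, exact 95% binomial interval 88.3 to 97.9%) and 94.0% (of 366 cells, 91.0 to 96.2%) of iNKT cells. They covered 30.4% and 34.8% of the other cells. In contrast, TRBV3 served 8.34% and 10.3% of the other cells and 0 iNKT cells in either replicate. Taking a floor of 3 counts, this allows a share of up to 2.78% of 108 and 0.820% of 366 cells. TRBV19, TRBV5 and TRBV20 were each used by at most 1.64% of iNKT cells and at least 6.44% of the others in either replicate. With 2 replicates no exact test can reach 0.05, so these differences were not tested.

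**Figure D1:**
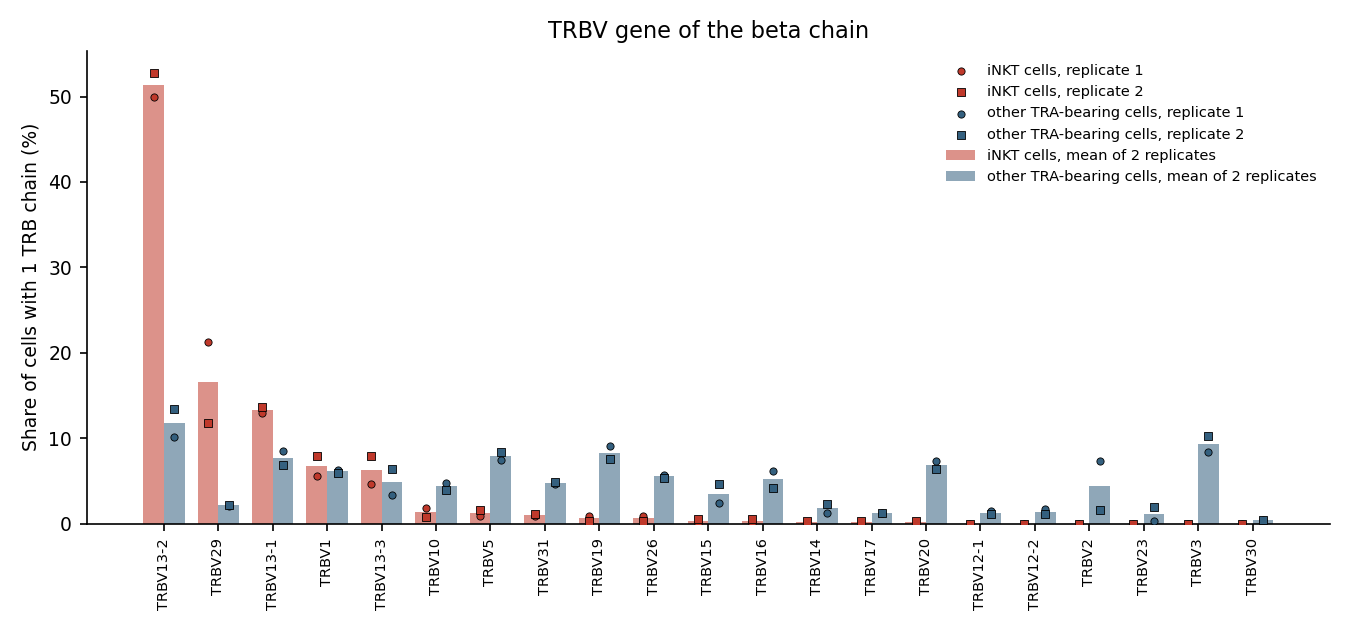
Share of cells with 1 TRB chain (y axis, percent) that used each TRBV gene (x axis), for iNKT cells (red) and other TRA-bearing cells (blue). Bars are means of the 2 replicates, and points are the replicates (circles, replicate 1; squares, replicate 2). TRBV13-2 stands at 50% and 52.7% in iNKT cells, and the 5 leftmost genes cover 94.4% and 94.0% of them.

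J genes of the beta chain differed less. TRBJ1-2 was used by 11.98% ± 1.22 (SD, n = 2) of iNKT cells and 5.14% ± 0.963 of the others, and TRBJ2-5 by 7.32% ± 5.11 against 13.96% ± 1.498. TRBJ2-7 was the commonest in both classes, at 20.5% ± 2.38 and 18.05% ± 1.79.

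Although the V genes were few, the beta junctions of iNKT cells were diverse. In replicate 1 all 108 iNKT cells had different beta chains (0 of 108 cells shared one, exact 95% binomial interval 0 to 3.36%). In replicate 2, 366 cells held 345 different chains, and 35 cells (9.56%, exact 95% binomial interval 6.75 to 13.0%) shared theirs with at least 1 other cell. Of the other TRA-bearing cells, 22.2% and 12.9% shared a beta chain; drawn down to the number of iNKT cells, 6.51% and 6.096% are expected to. Against that size-matched value the iNKT cells lay lower in replicate 1 and higher in replicate 2. In each of the 14 repeated beta chains of replicate 2, the cells also had 1 and the same alpha junction. The largest group had 7 cells, with TRBV13-2 and TRBJ2-4; the next 2 had 3 cells each. No beta junction was identical in bases between the iNKT cells of the 2 replicates, and 2 were identical in protein. The largest group and these 2 shared chains are shown, with their lengths between 39 and 45 bases.
Largest group, replicate 2: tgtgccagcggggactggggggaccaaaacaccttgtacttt
Shared TRBV13-2 protein, replicate 1: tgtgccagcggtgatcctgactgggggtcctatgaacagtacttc
Shared TRBV13-2 protein, replicate 2: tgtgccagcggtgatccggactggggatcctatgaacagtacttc
Shared TRBV29 protein, replicate 1: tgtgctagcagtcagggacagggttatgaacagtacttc
Shared TRBV29 protein, replicate 2: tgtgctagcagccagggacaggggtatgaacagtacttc

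Gene expression was read as counts of unique molecular identifiers (UMIs). The iNKT cells held 538411 UMIs in replicate 1 and 1003067 in replicate 2, with a median of 3680 and 1939 per cell. The other TRA-bearing cells had medians of 3055 and 1729. The libraries shared 554 barcodes, of which 4 were among the filtered cells and 0 among iNKT cells. At least 2 TRB chains were found in 11.1% and 9.09% of iNKT cells and in 6.06% and 8.63% of the others. In replicate 1 the hashtag was taken by its name, because the base sequence beside that name in the labels is not the one in the feature table.

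The label of the cells was checked against 4 genes that mark iNKT cells: Zbtb16, Klrb1c (which encodes NK1.1), Klrk1 (NKG2D) and Il12rb2 (a chain of the interleukin-12 receptor). Zbtb16 (chr9:48654297-48836222) was detected in 19.0% of iNKT cells in replicate 1 (24 of 126, exact 95% binomial interval 12.6 to 27.0%) and 11.7% in replicate 2 (50 of 429, 8.78 to 15.1%). In the other TRA-bearing cells it was detected in 0.439% and 1.32%, a level that includes any free RNA. With each cell thinned to 1000 UMIs the shares were 4.84% and 6.07%, against 0% and 0.683%. Thinning left out 2 and 17 iNKT cells and 17 and 123 other cells that were too shallow. The iNKT cells thus had the higher share in both replicates at equal depth, while most of them gave no Zbtb16 UMI. Klrb1c was detected in 15.9% and 14.5% of iNKT cells against 1.05% and 3.28% (thinned, 3.23% and 8.25% against 0.624% and 1.57%). Klrk1 was detected in 25.4% and 23.5% against 2.46% and 5.67% (thinned, 11.3% and 14.6% against 1.34% and 3.14%). Il12rb2 was detected in 23.0% and 20.7% against 3.42% and 4.73% (thinned, 4.03% and 12.4% against 0.713% and 2.73%). All 4 markers were therefore higher in the cells the receptor rule chose. The rule did not use these genes, but the gene lists that hold them were chosen with earlier results of these data known. Klrk1 and Il12rb2 are also counted among the NKT1 genes below.

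Cells just outside the rule were few. TRAV11 without TRAJ18 was carried by 4 and 11 cells, of which 0 and 2 had a Zbtb16 UMI. TRAJ18 without TRAV11 was carried by 23 and 56 cells, with Zbtb16 detected in 8.70% and 7.14%. Cells without any TRA contig showed Zbtb16 in 2.53% of 396 and 2.58% of 1397 cells. The rule asked for a hashtag at least 5 times the next; asking for 20 times left 114 and 348 iNKT cells, and asking for 2 times gave 138 and 516.

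**Figure D2:**
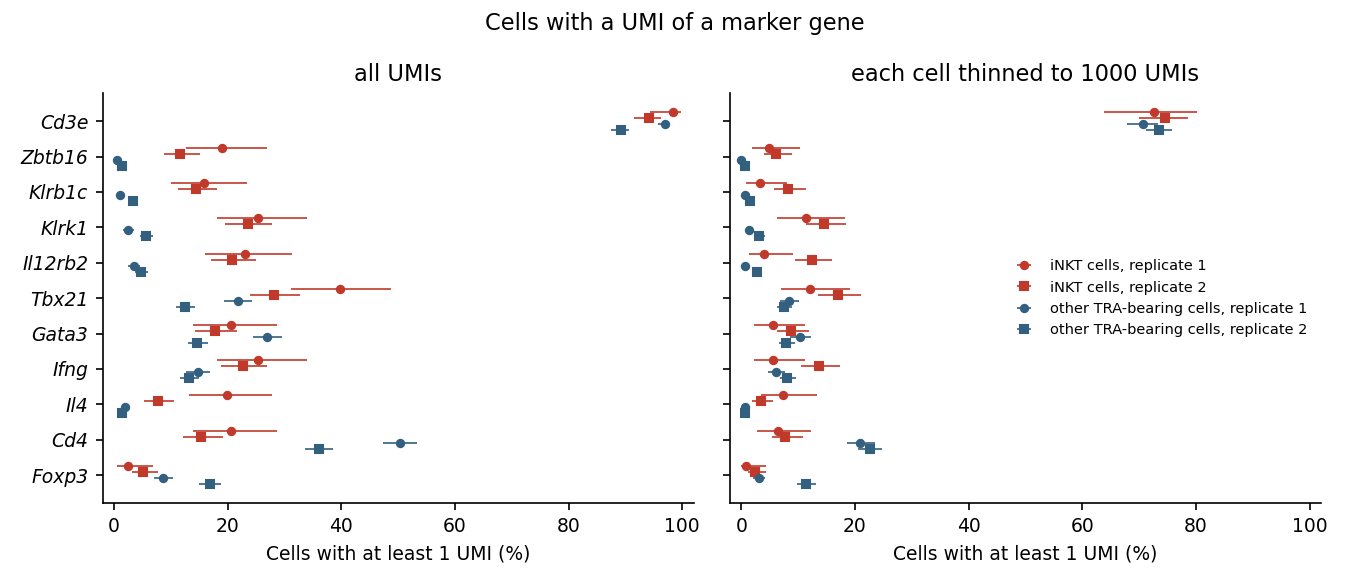
Share of cells with at least 1 UMI of each gene (x axis, percent), with all UMIs (left) and with each cell thinned to 1000 UMIs (right), for iNKT cells (red) and other TRA-bearing cells (blue). Points are the replicates and bars are exact 95% binomial intervals. Cd3e, a T-cell gene, was detected in most cells of both classes before thinning, Zbtb16, Klrb1c, Klrk1 and Il12rb2 were higher in iNKT cells, and Cd4 was lower.

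Expression was compared inside each replicate: the UMIs of all iNKT cells were summed, and likewise those of all other TRA-bearing cells, giving 4 sums. Levels are given as CPM, the field's usual scaling of a gene's UMIs to the total UMIs of its sum, and fold changes on the log2 scale, from edgeR's quasi-likelihood test with the replicate as a block and Benjamini-Hochberg adjustment. Of 9978 genes tested, 586 passed an adjusted p of 0.05 (5.87%), 299 higher (3%) and 287 lower (2.88%) in iNKT cells, with a median log2 fold change of -0.01 over all genes. Without the block, 0 genes passed and 540 had an unadjusted p under 0.05. With DESeq2, 192 of 7678 genes passed. With cells thinned to 1000 UMIs, 27 of 7389 passed. Of the 586 genes, 512 differed in the same direction in both replicates, 7 in opposite directions, and 67 had a sum at 0. The 2 replicates leave 1 residual degree of freedom, the p-values measure only the spread between these sums, and whether separate animals stand behind each replicate is not given.

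**Figure D3:**
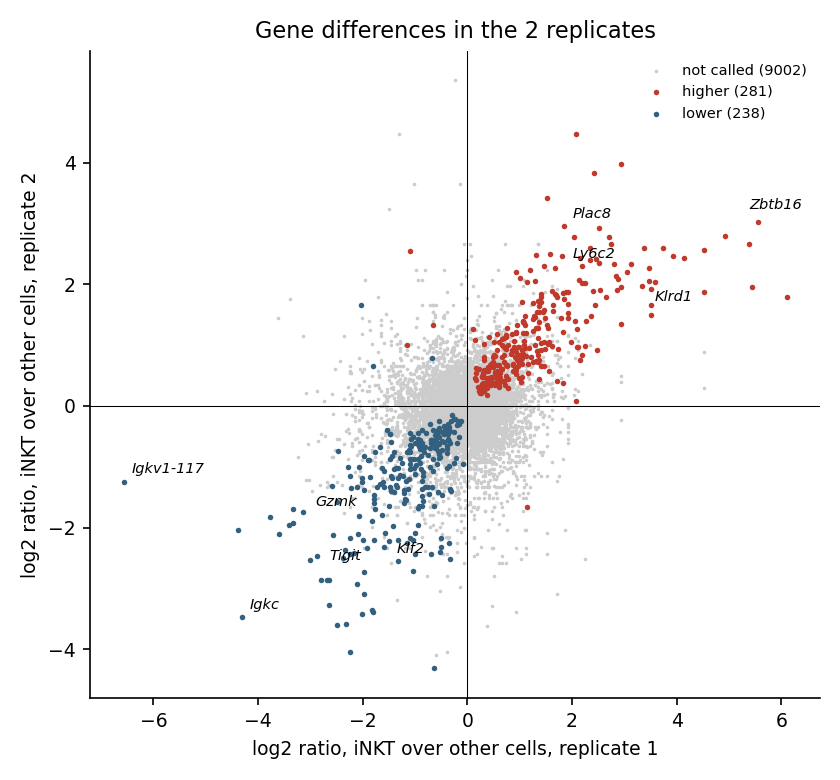
Log2 ratio of iNKT cells over other TRA-bearing cells in replicate 1 (x axis) and replicate 2 (y axis) for each gene tested with UMIs in all 4 sums. Red points passed the test as higher (281) and blue as lower (238); grey points (9002) did not pass. Genes such as Zbtb16, Ly6c2 and Klrd1 lie in the upper right corner and Tigit in the lower left; Igkv1-117 lies farthest to the left.

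Those genes of NK-cell receptors that could be tested were mostly higher and had the highest median of the gene lists. Of 25 genes on the list, 14 were abundant enough to test, 11 were higher and 0 lower, with a median log2 fold change of 2.43. All genes tested were higher in 3% and lower in 2.88%. The filter on low counts could admit a gene through 1 class alone. Klra9, Klra1, Klra3 and Klre1, low in the other cells, entered through their iNKT levels. The count and median therefore do not describe the whole list, of which 11 genes were not tested. Klrk1, the activating receptor NKG2D (chr6:129610323-129623864), stood at 162 and 185 CPM in iNKT cells and at 14.6 and 44.8 in the others (log2 fold change 2.54, SE 0.23, adjusted p = 1.13e-06). Klrd1, which encodes CD94, the partner of NKG2 receptors (chr6:129591782-129598775), stood at 173 and 123 against 17.05 and 31.2 (2.57, SE 0.24, adjusted p = 1.58e-06). Both were higher in iNKT cells in each replicate, with no overlap between the classes. Klrc1, which encodes the inhibitory receptor NKG2A, stood at 46.4 and 85.7 against 6.33 and 20.2 (2.29, SE 0.24, adjusted p = 8.52e-06). Klrb1c stood at 61.3 and 93.7 against 5.11 and 22.7 (2.45, SE 0.28, adjusted p = 1.61e-05). Klre1 stood at 42.7 and 47.9 against 2.44 and 8.84 (2.97, SE 0.35), and Cd160 at 53.9 and 76.8 against 14.6 and 20.8 (1.87, SE 0.22).

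The Ly49 genes Klra9, Klra1 and Klra3, which encode receptors for class I MHC molecules, were also higher, by 3.72, 2.60 and 2.48 on the log2 scale. They are near-identical family members whose reads can be split between copies, and they rest on few UMIs: 61 for Klra9, 54 for Klra1 and 27 for Klra3 over both iNKT sums. Klrb1f (2.40, SE 0.30) and Cd226 (0.89, SE 0.11) completed the 11. Of the genes that define NK cells themselves, Ncr1 had 0 and 1 UMIs in the iNKT sums and Eomes, which is also on the NKT1 list, 0 and 3. Of 6 NK adapter genes tested 1 was higher and 1 lower (median 0.11), beside 3% and 2.88% of all genes tested. The higher one was Fcer1g, which encodes the common gamma chain of Fc receptors, at 35.3 and 35.9 CPM against 6.33 and 18.9 (log2 fold change 1.40, SE 0.33, adjusted p = 0.0149). It rested on 19 and 36 UMIs, and the call ended without cells that carry markers of another type (1.76, adjusted p = 0.186), an alternative described in the closing section. The lower one was Cd247, the CD3 zeta chain (-1.15, SE 0.11, adjusted p = 1.48e-06). Tyrobp, the adapter of many NK receptors, had 2 and 17 UMIs and did not pass (0.12, adjusted p = 0.937).

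Transcription factors of the iNKT lineage followed. Zbtb16 stood at 68.7 and 61.8 CPM in iNKT cells and at 1.46 and 7.57 in the others (log2 fold change 3.86, SE 0.38, adjusted p = 3.6e-06). Id2, a factor of innate-like lymphocytes, stood at 1870 and 1108 against 889 and 527 (1.07, SE 0.06, adjusted p = 9.03e-09). Tbx21, which encodes T-bet (chr11:97098071-97115331), stood at 128 and 149 against 74.5 and 74.5 (0.90, SE 0.14, adjusted p = 0.000359). Each was higher in both iNKT sums than in either sum of the others. Gata3 stood at 70.6 and 87.7 against 98.1 and 85.5 and did not pass (-0.17, SE 0.16, adjusted p = 0.704). Zfp683, which encodes Hobit, a factor of tissue-resident lymphocytes, was higher at 35.3 and 82.7 against 13.6 and 26.5 (1.56, SE 0.22, adjusted p = 0.000153), and Satb1, a chromatin organiser, at 150 and 129 against 31.4 and 48.9 (1.76, SE 0.19, adjusted p = 8.76e-06).

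Of 12 genes shared by all kinds of iNKT cell, 5 were higher and 3 lower (median 0.19). Over all genes tested, 3% were higher and 2.88% lower. Of 15 NKT1 genes tested, 12 were higher and 0 lower, with a median log2 fold change of 1.21. Several of them, such as Klrk1, Klrd1 and Klrc1, are also on the NK receptor list. Ifng, Stat4 and Fcer1g were among the 12 but did not pass without cells that carry markers of another type (adjusted p = 0.0834, 0.121 and 0.186). Eomes, also on the NKT1 list, was too low to test and is not in these counts. In replicate 1 it was detected in 0 of 126 iNKT cells and in 29 of 1139 other cells, the opposite direction. Of 7 NKT2 genes tested, 2 were higher, Il4 and Plac8, and 1 lower (median 0.03). Of 6 NKT17 genes tested, 0 were higher and 1 was lower, Ccr6, with 5 and 4 UMIs in iNKT cells; 7 NKT17 genes were too low to test. Of 8 genes of follicular and interleukin-10-producing iNKT cells, 0 were higher and 3 lower (median -1.45), among them Pdcd1, which encodes PD-1, at 22.3 and 54.8 against 105 and 139 (-1.58, SE 0.19, adjusted p = 2.68e-05). Cxcr5, the receptor that guides cells to B-cell follicles, had 0 and 2 UMIs in iNKT cells.

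In single cells Tbx21 was detected in 39.7% and 28.2% of iNKT cells against 21.8% and 12.5% of the others (thinned, 12.1% and 16.99% against 8.38% and 7.51%). Gata3 was detected in 20.6% and 17.7% against 27.0% and 14.7%. Il17a was detected in 0 and 0 iNKT cells, which allows a share with a UMI of up to 2.38% and 0.699%. Tbx21 and Gata3 were detected together in 10 and 30 iNKT cells, beside 40 and 91 with Tbx21 alone and 16 and 46 with Gata3 alone. At this depth a gene without a UMI cannot be taken as silent in a cell.

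Among cytokines, 16 genes were tested, 5 were higher and 1 lower, beside 3% and 2.88% of all genes tested. Il4 (chr11:53602982-53618669), the cytokine of type 2 responses, stood at 65.0 and 40.9 CPM in iNKT cells and at 5.84 and 8.52 in the others (log2 fold change 2.84, SE 0.31, adjusted p = 1.31e-05). It was detected in 19.8% and 7.69% of iNKT cells against 1.84% and 1.32% (thinned, 7.26% and 3.40% against 0.624% and 0.615%). Ifng (chr10:118441046-118445892), which encodes interferon gamma, stood at 210 and 171 against 81.1 and 126 (0.83, SE 0.17, adjusted p = 0.00404). In replicate 1 a single iNKT cell gave 67 of the 113 Ifng UMIs, and without it the level was 86.2. The call also ended without cells that carry markers of another type (0.88, adjusted p = 0.0834). Ifng and Il4 were detected together in 7 and 11 iNKT cells, beside 25 and 86 with Ifng alone and 18 and 22 with Il4 alone.

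Chemokine genes differed from one another. Xcl1, which encodes lymphotactin, a chemokine that draws dendritic cells, stood at 628 and 476 against 205 and 129 (1.74, SE 0.09, adjusted p = 2.18e-09) and was detected in 63.5% and 47.1% of iNKT cells against 19.2% and 9.70%. Single comparison cells gave 342 of the 840 and 143 of the 408 Xcl1 UMIs of the other cells, and without them those levels were 121 and 83.7. Ccl5 stood at 1750 and 1592 against 2050 and 987, which overlap, and did not pass (0.23, SE 0.13, adjusted p = 0.42). Ccl4 passed as higher (1.35, SE 0.11), but single cells held much of it in both classes. In replicate 1, 1 iNKT cell gave 229 of 241 Ccl4 UMIs and 1 comparison cell 507 of 751; without each, the iNKT level was 22.5 and that of the others 59.5, the opposite order. In replicate 2 the top cells gave 45 of 166 and 97 of 191, and without them the levels were 122 and 29.7. Il2, the growth factor of T cells, was lower at 27.9 and 17.9 against 50.6 and 42.3 (-1.07, SE 0.25, adjusted p = 0.0144); this call too ended without cells bearing other markers (-0.92, adjusted p = 0.162).

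Of 12 genes of the cytotoxic programme tested, 6 were higher, 1 was lower and 5 did not pass (median 0.84). Among all genes tested 3% were higher and 2.88% lower. Nkg7, a granule membrane protein, stood at 1536 and 1566 CPM against 728 and 608 (1.22, SE 0.07, adjusted p = 9.03e-09), and was detected in 92.9% and 90.9% of iNKT cells against 50.6% and 41.7%. Ctsw, which encodes cathepsin W, stood at 722 and 723 against 258 and 265 (1.46, SE 0.08, adjusted p = 2.18e-09), and Fasl, the death ligand, at 100.3 and 189 against 37.7 and 99.7 (1.06, SE 0.15, adjusted p = 0.000131). For Nkg7 and Ctsw the classes did not overlap. The lower gene was Gzmk, which encodes granzyme K, at 16.7 and 17.9 against 147 and 60.3 (-2.38, SE 0.26, adjusted p = 1.07e-05). Gzmb passed as higher (0.89, SE 0.20), with 98.4 and 38.9 against 48.0 and 24.0, and 1 cell gave 18 of its 53 UMIs in replicate 1. With cells admitted at a hashtag margin of 2, Gzmb ran the other way and did not pass (-0.66, adjusted p = 0.289). Prf1, which encodes perforin, had 4 and 9 UMIs in the iNKT sums and did not pass (0.35, adjusted p = 0.793).

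Receptors for cytokines went both ways: of 18 tested, 3 were higher and 4 lower, beside 3% and 2.88% of all genes tested. Il12rb2 (chr6:67291318-67376188) stood at 59.4 and 98.7 CPM against 10.2 and 26.2 (log2 fold change 2.10, SE 0.22, adjusted p = 6.05e-06), and Il12rb1, the other chain of that receptor, at 74.3 and 54.8 against 25.1 and 36.9 (0.98, SE 0.24, adjusted p = 0.017). Il2rb, a chain shared by the receptors for interleukin-2 and interleukin-15, stood at 709 and 952 against 344 and 529 (0.93, SE 0.08, adjusted p = 3.51e-07). All 3 were higher in both iNKT sums than in either other sum, but without cells bearing other markers Il12rb1 no longer passed (0.92, adjusted p = 0.112). Il7r, the interleukin-7 receptor, was lower at 137 and 125 against 427 and 432 (-1.73, SE 0.10, adjusted p = 9.03e-09). Il6ra was lower at 3.71 and 18.9 against 45.05 and 81.1 (-2.35, SE 0.27, adjusted p = 2.11e-05), as was Il18r1 (-0.97, SE 0.19, adjusted p = 0.0039).

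Some genes of trafficking and residency also differed between the classes, in both directions. Of 10 genes of naive and recirculating T cells, 1 was higher, Satb1, and 7 were lower (median -1.26). Klf2, a regulator of tissue exit, stood at 81.7 and 64.8 CPM against 248 and 323 (-2.04, SE 0.15, adjusted p = 8.65e-08). S1pr1, the exit receptor it controls, stood at 31.6 and 39.9 against 84.0 and 157 (-1.81, SE 0.18, adjusted p = 5.21e-06). Of 13 chemokine receptor genes 3 were higher and 6 lower (median -0.30), beside 3% and 2.88% of all genes tested. Cxcr6, a receptor of liver and tissue lymphocytes, stood at 1263 and 1107 against 464 and 381 (1.49, SE 0.07, adjusted p = 4.35e-10), and was detected in 95.2% and 82.8% of iNKT cells against 48.8% and 36.04%. Ccr8 was lower (-1.68, SE 0.29, adjusted p = 0.00142). Of 16 residency and adhesion genes 5 were higher and 3 lower, with 8 of the 16 above 0 (median -0.00). Itga1, which encodes the collagen-binding integrin CD49a, stood at 106 and 61.8 against 41.9 and 21.1 (1.42, SE 0.19, adjusted p = 8.63e-05). Itga4, a chain of the integrin VLA-4, stood at 74.3 and 133 against 253 and 429 (-1.72, SE 0.11, adjusted p = 2.79e-08).

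T-cell receptor and co-receptor genes were next. Of 12 core T-cell genes 2 were higher and 4 lower (median -0.13), beside 3% and 2.88% of all genes tested. Cd3e, Cd3g and Cd3d did not pass, at log2 fold changes of 0.02, 0.07 and 0.04. Cd4 (chr6:124864692-124888221), the co-receptor used in the sort, stood at 61.3 and 85.7 CPM against 212 and 247 (-1.62, SE 0.13, adjusted p = 3.51e-07). It was detected in 20.6% and 15.4% of iNKT cells against 50.3% and 36.04% (thinned, 6.45% and 7.77% against 20.9% and 22.6%). Cd8a had 0 and 1 UMIs in the iNKT sums, and Trdc, the gamma-delta receptor gene, 0 and 0. Cd5, a brake on receptor signalling, was lower at 137 and 196 against 335 and 430 (-1.19, SE 0.10, adjusted p = 5.14e-07), and so was Lat, a receptor adapter (-0.57, SE 0.07, adjusted p = 5.48e-05). SLAM family receptors are needed for iNKT development. Of the genes of these receptors and their signalling partners 9 were tested, with Slamf7 higher (1.40, SE 0.20, adjusted p = 0.000167) and Slamf6 lower (-1.32, SE 0.16, adjusted p = 2.68e-05). Sh2d1a, which encodes the adapter SAP, did not pass, at 188 and 174 against 168 and 167 (0.10, SE 0.11, adjusted p = 0.765).

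The comparison cells included regulatory T cells. Foxp3, their defining factor, stood at 14.9 and 23.9 CPM in iNKT cells against 37.3 and 140.1 (-2.30, SE 0.23, adjusted p = 3.6e-06), and 1 iNKT cell gave 6 of the 8 UMIs of replicate 1. It was detected in 8.60% and 16.8% of the other TRA-bearing cells and in 2.38% and 5.13% of iNKT cells. Of 14 regulatory T-cell genes 5 were lower and 0 higher (median -1.04), beside 2.88% and 3% of all genes tested. Tnfrsf4, which encodes OX40, stood at 63.1 and 41.9 against 248 and 359 (-2.66, SE 0.18, adjusted p = 3.49e-08), and Ikzf2, which encodes Helios, at 42.7 and 56.8 against 182 and 244 (-2.10, SE 0.14, adjusted p = 4.46e-08). Tigit, an inhibitory receptor, stood at 24.1 and 33.9 against 177 and 187 (-2.60, SE 0.17, adjusted p = 3.49e-08). With comparison cells limited to those without a Foxp3 UMI, 765 of 9677 genes passed. In replicate 1, 1 iNKT cell gave 18 of the 34 Tnfrsf4 UMIs, and without it the iNKT level was 30.3. Against the Th1-type cells described further on, which hold no Foxp3 UMI, 8 of the regulatory T-cell genes were tested. Of these 3 were lower and 2 higher (median 0.14), beside 2.23% and 2.66% of all genes tested there. The lower ones were Tnfrsf4 (-1.99, SE 0.18), Ikzf2 (-1.42, SE 0.17) and Capg (-0.99, SE 0.12). The higher ones were Il2ra, a chain of the interleukin-2 receptor, at 70.6 and 77.8 against 23.5 and 46.0 (1.09, SE 0.22), and Areg, which encodes amphiregulin (1.23, SE 0.22). Areg had 88 and 2 UMIs in the iNKT sums and was higher in replicate 1 and lower in replicate 2. Il2ra did not pass against all other TRA-bearing cells. The lack of a Foxp3 UMI was asked of the Th1-type cells and not of the iNKT cells, and its part in the Il2ra difference was not tested.

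By the rule for named genes, Ly6c2, a lymphocyte surface antigen, headed the higher group. It stood at 1906 and 1601 CPM in iNKT cells against 217 and 317 (log2 fold change 2.72, SE 0.12, adjusted p = 2.97e-10). The near-identical Ly6c1 stood at 249 and 92.7 against 59.9 and 35.03 (1.79, SE 0.16, adjusted p = 1.49e-06); how reads were split between them was not tested. Plac8, also on the NKT2 list, stood at 405 and 355 against 112 and 45.8 (2.34, SE 0.17), Anxa1, which encodes annexin A1, at 260.0 and 172 against 81.8 and 48.0 (1.74, SE 0.13), and Gm19585 at 238 and 181 against 44.8 and 48.9 (2.13, SE 0.15). Arsb (1.76) and Lmo4 (1.70) completed the higher group. All of these were above the other cells in both replicates, which the rule for named genes required. On the lower side stood Gpm6b, a membrane glycoprotein, with 4 and 4 UMIs in iNKT cells (-2.98, SE 0.38), Nsg2 (-2.79, SE 0.30), St6gal1, a sialyltransferase (-2.45, SE 0.31), and Tnfsf8, which encodes the ligand of CD30 (-2.33, SE 0.27).

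Genes of other cell types were measured in the same sums. Igkv1-117 and Igkc, immunoglobulin light-chain genes, headed the lower group at -6.24 and -4.13. In replicate 1, however, 1 comparison cell gave 5733 of the 5799 Igkv1-117 UMIs and 904 of the 1668 Igkc UMIs. Without cells bearing other markers neither gene passed (-0.14 and -0.75). Of 7 B-cell genes 4 were tested and all 4 were lower, beside 2.88% of all genes tested. The defining Cd79a was at 0 and 0 UMIs in iNKT cells, so it entered the test through the other cells alone. Against the Th1-type cells described further on, only 1 B-cell gene could be tested, and it did not pass. Among stromal genes 3 of 6 tested were higher and 2 lower, beside 3% and 2.88% of all genes tested. Their summed levels were 706 and 20.9 in iNKT cells against 666 and 48.6. One iNKT cell gave 84 of the 93 Col1a1 UMIs in replicate 1. In replicate 2, 1 cell gave 122 of the 126 Hbb-bs UMIs (a haemoglobin gene) and 1 cell gave 65 of the 71 Lyz2 UMIs (a myeloid gene). Mmp9, the only neutrophil gene abundant enough to test, was higher at 106 and 65.8 against 24.8 and 27.5 (1.65, SE 0.22, adjusted p = 8.68e-05), and was detected in 32.5% and 11.9% of iNKT cells against 6.58% and 4.54% (thinned, 6.45% and 7.77% against 3.30% and 2.60%). The neutrophil genes S100a8 and S100a9 had 0 and 4 and 0 and 1 UMIs in iNKT cells. Removing cells with at least 2 markers of 1 other type, 11 and 12 iNKT cells, left 351 of 9493 genes that passed.

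Several lists showed no called gene. Of 13 immediate early genes, which respond to receptor stimulation, 0 passed (median -0.11), with summed levels of 3709 and 2964 CPM in iNKT cells against 3646 and 3447. Of 10 cell-cycle genes 0 passed, though all 10 had fold changes above 0 (median 0.32), with summed levels of 819 and 1386 against 814 and 1044. Of 10 ribosomal protein genes 0 passed (median -0.03).

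**Figure D4:**
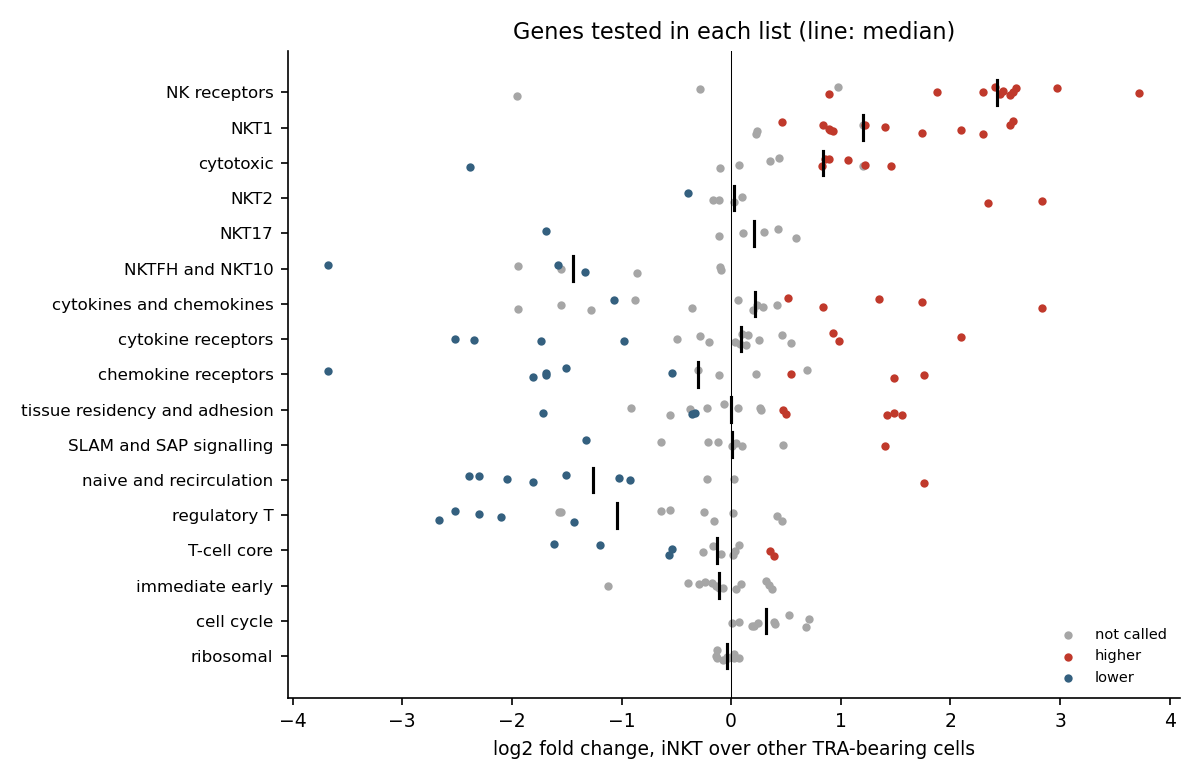
Log2 fold change of iNKT cells over other TRA-bearing cells (x axis) for each tested gene of each list (rows). Red points passed the test as higher, blue as lower and grey did not pass; the black line is the list's median. NK receptors (median 2.43) and NKT1 genes (1.21) lie to the right and genes of naive and recirculating cells (-1.26) to the left.

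A closer comparison used conventional cells with genes of type 1 helper cells, which NKT1 cells also use: other TRA-bearing cells with a UMI of Tbx21, Cxcr3 or Ifng and without a Foxp3 UMI, 737 and 741 cells, called Th1-type here. These genes chose the cells and were left out of that test. Of 8793 genes tested, 430 passed (4.89%), 234 higher (2.66%) and 196 lower (2.23%) in iNKT cells, with a median log2 fold change of 0.01. Without the block 0 passed, and 387 had an unadjusted p under 0.05. With DESeq2 98 of 6864 passed, and with no filter on low counts 1 of 19055. The comparison shares its iNKT sums with the first one, so its values are set beside the first and not taken as separate support.

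Against Th1-type cells the tested NK receptor genes again had the highest median of the lists. Of 13 tested 11 were higher and 0 lower (median 2.25), beside 2.66% and 2.23% of all genes tested there. Again some, such as Klra3, entered the test through their iNKT levels, and 12 genes of the list were not tested. Klrk1 stood at 17.3 and 59.6 CPM in Th1-type cells (log2 fold change 2.25, SE 0.23, adjusted p = 6.15e-07), and Klrd1 at 16.9 and 42.9 (2.36, SE 0.26, adjusted p = 2.02e-06). Both iNKT levels given above lie beyond these. Of 12 NKT1 genes tested 9 were higher and 0 lower (median 1.13); among these Nkg7 differed by 0.84 (SE 0.06) and Xcl1 by 1.16 (SE 0.09). Zbtb16 stood at 1.10 and 9.32 in Th1-type cells (3.84, SE 0.41, adjusted p = 1.01e-06), and Il4 at 5.88 and 11.2 (2.69, SE 0.34, adjusted p = 1.22e-05). Arl4d, a small GTPase, headed the higher group at 119 and 83.7 against 16.2 and 16.8 (2.64, SE 0.22, adjusted p = 2.5e-08), and Txk, a kinase of the Tec family, stood at 134 and 180 against 29.8 and 67.1 (1.73, SE 0.17, adjusted p = 5.06e-07). Ly6c2 was at 248 and 417 (2.44, SE 0.13).

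On the lower side, Gzmk stood at 194 and 84.5 CPM in Th1-type cells (-2.81, SE 0.24, adjusted p = 4.39e-08), Tigit at 150.2 and 151 (-2.30, SE 0.19, adjusted p = 2.43e-08) and Il7r at 346 and 351 (-1.41, SE 0.11, adjusted p = 1.59e-08). Cd4 stood at 223 and 242 (-1.62, SE 0.14, adjusted p = 5.01e-08). Each was above both iNKT levels. Tiam1 (-2.16) and Fam169b (-1.84) also passed as lower, on 2 and 14 and 2 and 20 UMIs in the iNKT sums. Dcn and Gsn, which fibroblasts express strongly, passed as lower (-2.42 and -2.36), but their UMIs lay almost all in replicate 1, 998 of Dcn in Th1-type cells against 6 in replicate 2. Without cells bearing other markers Dcn ran the other way (0.43) and Gsn did not pass (-0.83, adjusted p = 0.288). Of 10 genes of naive and recirculating cells 5 were lower and 1 higher, beside 2.23% and 2.66% of all genes tested there. Ccr7, lower against all other cells (-1.50, adjusted p = 0.00251; -1.40 and 0.0903 without cells bearing other markers), did not pass here (-0.70, SE 0.31, adjusted p = 0.295). Dusp1 was the 1 of 13 immediate early genes that passed as higher (0.61, SE 0.14, adjusted p = 0.00679). In replicate 1, however, 1 iNKT cell gave 38 of 138 Dusp1 UMIs and 1 Th1-type cell 82 of 670. Without them the iNKT level was 195 and the Th1-type level 217, so the iNKT level was the lower. In replicate 2 the levels without the top cells were 508 and 253.

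**Figure D5:**
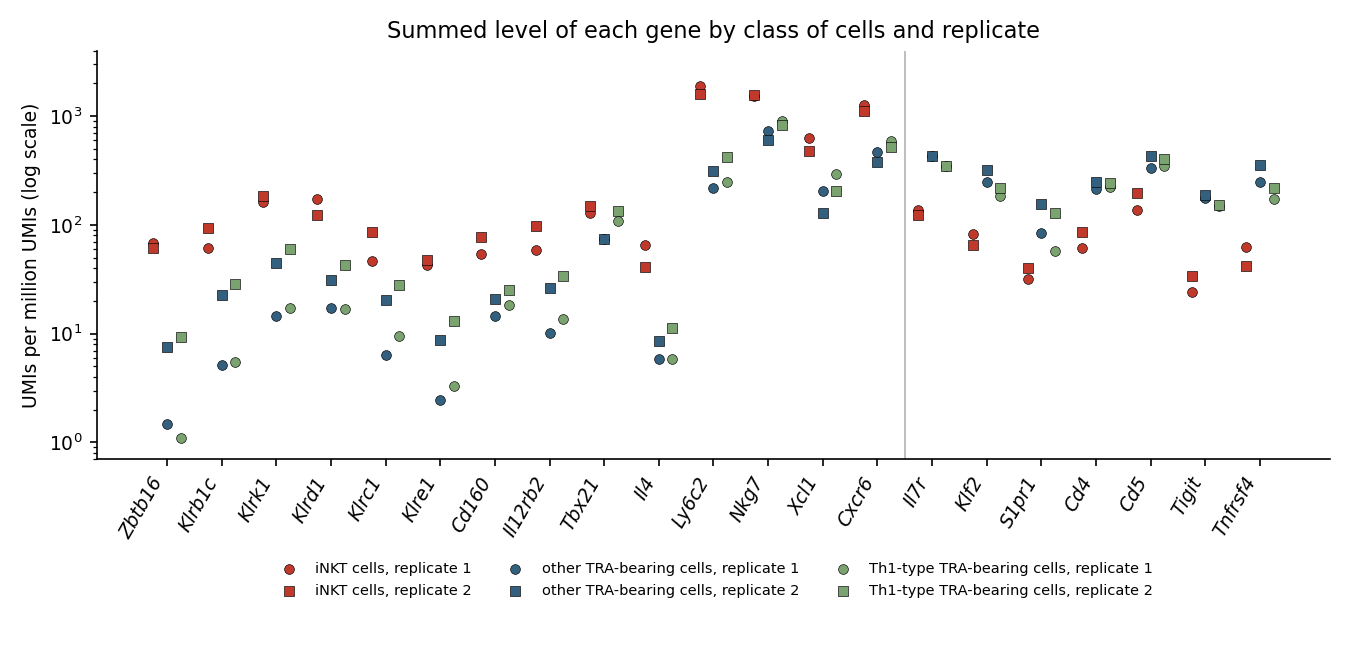
CPM (y axis, log scale) of selected genes (x axis) in the sums of iNKT cells (red), other TRA-bearing cells (blue) and Th1-type TRA-bearing cells (green, a part of the other cells), for replicate 1 (circles) and replicate 2 (squares). Genes left of the line were higher in iNKT cells against the other cells, genes right of it lower. For Klrk1, for example, the red points are at 162 and 185, above all blue and green points.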

How the data were processed

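The deposited matrices hold raw UMI counts per gene and cell, per the file headers written by Cell Ranger 4.0.0 (replicate 1) and 6.0.0 (replicate 2). The submitters' processing notes name Cell Ranger 6.1.0, Seurat and mm10. The labels name a single-cell 3' kit and the series' design text a 5' kit with receptor sequencing; which one was used was not settled. Cells were kept with at least 10 counts of the replicate's hashtag (Hash7 or Hash10), at least 5 times the next hashtag, at least 500 genes and under 10% mitochondrial UMIs; no doublet caller was run. Receptor contigs were joined by barcode within a replicate, and 266 receptor genes were left out of the tests.

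Counts were summed per replicate and class and tested with edgeR 4.0.16 in R 4.3.3 (filterByExpr, TMM, quasi-likelihood). The replicate was a block because its 2 classes were cells of 1 library; their deviations correlated across 9978 genes (r = 0.76, rho = 0.53; genes are not independent). edgeR's older estimate of the spread returned an infinite prior and called 733 and 545 genes in the 2 comparisons, some in opposite directions in the replicates. Its bias-adjusted estimate was used instead, a change made after seeing this. That estimate, too, called 7 and 9 genes in opposite directions. Named genes are the 12 highest and 12 lowest with an adjusted p under 0.05, the same sign in each replicate and a log2 CPM of at least 5 on average, besides the 4 markers and members of the gene lists. Intervals are exact binomial (SciPy 1.17.1) and, like the floors of 3 counts, cover counting error only. The members and gene lists were chosen with earlier results of these data known. Coordinates come from GENCODE M21. DESeq2 1.42.0 and other scaling, filters and margins were alternatives. Some members of the gene lists are not reported here.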

Additional observations from a re-analysis of the deposited data

How the results depend on the processing

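The count of called genes depended on the replicate block more than on any other choice tried: without the block it was 0 in both comparisons. Against other TRA-bearing cells the 586 calls became 27 with cells thinned to 1000 UMIs (which leaves fewer counts), 301 with no filter on low counts, 192 with DESeq2, and 351 without cells that carry at least 2 markers of another type, tried only after seeing the data; the other 8 alternatives gave 446 to 765. Against Th1-type cells the 430 calls became 10 when thinned, 1 with no filter, 98 with DESeq2, 204 with at least 1000 genes per cell and 215 with exactly 1 TRA and 1 TRB chain; the other 6 gave 375 to 594. Where no cause is given, it was not tested. Without a replicate only 1 sum per class is left, so no calls can be counted. The TRBV13-2 difference was 38.5 points with each clonotype counted once, 35.9 with every chain, 38.7 and 36.8 at hashtag margins of 20 and 2, 40.3 at 1000 genes, and 39.3 to 39.8 without a replicate. The mean iNKT share ranged from 14.3% to 19.1%, and from 9.96% to 21.3% without a replicate. Thinned, the mean share with a UMI was 5.45% for Zbtb16 (main 15.4%, 11.7% to 19.0% without a replicate), 5.74% for Klrb1c (14.5% to 15.9%), 12.9% for Klrk1 (23.5% to 25.4%) and 8.21% for Il12rb2 (20.7% to 23.0%). Among named genes, directions reversed for Gzmb at a margin of 2 (-0.66 against other cells, -0.26 against Th1-type), Dcn without cells bearing other markers (0.60, 0.43), Col1a1 at a margin of 20 (-1.56, -1.68) and with 1 TRA and 1 TRB chain (-1.61, -1.998), Hbb-bs without replicate 2 (-1.16, -0.25; 1.01 and 2.57 without replicate 1), and Lyz2 without replicate 2 (-0.65 against other cells; 1.33 without replicate 1) and at a margin of 2 (-0.71, against Th1-type). Without cells bearing other markers 14 calls against other cells were lost, among them Ifng, Ccr7, Il12rb1, Il2, Igkc and Gsn. DESeq2 lost 53 calls of named genes over both comparisons, thinning 132 and the missing filter 99. Depth limits every statement on single cells: most iNKT cells gave no UMI of a given marker.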

Other observations

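iNKT cells with TRBV13-2 and with other beta chains were set side by side within the rule's cells, as values without a test. Cd4 stood at 91.8 and 121 CPM in the 54 and 193 iNKT cells with TRBV13-2 and at 33.4 and 62.3 in the 54 and 173 cells with other TRBV genes, with 20 and 8 UMIs behind the values of replicate 1. Zbtb16 stood at 78.0 and 72.7 against 50.03 and 59.7, with 17 and 12 UMIs behind the values of replicate 1. Nr4a1, an early response gene of receptor signalling, stood at 119 and 74.9 against 66.7 and 51.9, on 26 and 34 UMIs against 16 and 20. In each of these 3 genes both values with TRBV13-2 lay above both others. Tbx21 stood at 128 and 170 against 113 and 122, with the same order. Klrk1 stood at 156 and 183 against 158 and 197, and Cxcr6 at 1317 and 1126 against 1213 and 1111; these overlapped between the beta-chain groups. Il12rb2 lay lower with TRBV13-2 in each replicate, at 45.9 and 92.5 against 75.0 and 104, though the ranges overlapped. Egr1 stood at 206 and 68.3 against 163 and 77.9, and Cd69 at 170 and 229 against 238 and 226. For both of these the order differed between the replicates. Il4, at 87.2 and 48.5 against 41.7 and 44.1, and Nkg7, at 1702 and 1593 against 1451 and 1548, also separated. In all other genes of the 17 looked at, the beta-chain groups overlapped. With 2 values on each side, full separation of a gene often arises by chance, so it is not taken as a trait of TRBV13-2 cells. The genes named here were chosen after their values were seen.

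Some iNKT beta junctions were also found outside the rule: 0 of replicate 1 and 8 of replicate 2 were carried, base for base, by other TRA-bearing cells of the same replicate.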
